A study of Rattus norvegicus with 8 samples.

Results

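The C/EBP factors and Nfil3 are transcription factors of the bZIP class. The genes examined were Cebpa, Cebpb, Cebpd, Cebpg and Nfil3. The measurements taken were those of all probe sets on either chip whose annotated gene symbol is 1 of these 5. This gave 8 probe sets, all on chip A, of 31142 probe sets in all, which name 13810 genes by a single symbol. Chip B held 0 of them. The RNA measured on these 2 chips came from PC12, a cell line derived from a rat pheochromocytoma, a tumour of the catecholamine-making cells of the adrenal medulla. Chip A carries 15866 probe sets and chip B 15276. Each chip had 2 arrays of cells given forskolin and 2 arrays of cells without it. Forskolin activates adenylyl cyclase and so raises cyclic AMP inside the cell. The series title calls the second group an inactive control without naming the agent, and neither dose nor time is given in the sources used here. Nothing says that the 2 replicates of a group came from separate cultures, so each p-value reflects how these samples scatter, and that scatter may be technical.

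A bZIP protein pairs with another through a leucine zipper and grips DNA with the basic region beside it. C/EBP alpha, beta and delta activate genes of fat, liver and myeloid cells and of the acute phase response. C/EBP gamma lacks the activation domain of its relatives and can hold them back by pairing with them. Nfil3, also called E4BP4, is a repressor that binds D-boxes and so competes with the activators Dbp, Hlf and Tef, through which it acts on clock genes. The Cebpb and Nfil3 genes are both known to respond to cyclic AMP in other cells, where CREB binds the cyclic AMP response element (CRE), a palindrome that opens with TGACG.

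Promoter letters are shown because Cebpb and Nfil3 rose with forskolin while Cebpg was not called. The reference windows of RefSeq (assembly GRCr8) run from 250 bases before to 50 after each gene's start and held 4 of the 5 genes, 1 window each. Cebpd was not matched. The 250 bases before the start are printed 5′ to 3′ on the gene's strand, with capitals on each TGACG or its reverse complement CGTCA. The windows lie at chr3:176816755-176817004 on the plus strand for Cebpb, at chr17:12432126-12432375 on the plus strand for Nfil3 and at chr1:96829737-96829986 on the minus strand for Cebpg.
Cebpb: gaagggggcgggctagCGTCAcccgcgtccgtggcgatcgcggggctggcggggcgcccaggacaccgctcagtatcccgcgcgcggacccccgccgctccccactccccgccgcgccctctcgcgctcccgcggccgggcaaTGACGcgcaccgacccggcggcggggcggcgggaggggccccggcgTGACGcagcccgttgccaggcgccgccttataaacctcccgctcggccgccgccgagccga
Nfil3: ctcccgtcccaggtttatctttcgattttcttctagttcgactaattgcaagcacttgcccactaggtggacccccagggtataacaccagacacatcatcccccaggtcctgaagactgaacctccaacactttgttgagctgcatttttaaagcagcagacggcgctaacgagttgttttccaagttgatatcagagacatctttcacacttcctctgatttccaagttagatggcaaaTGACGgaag
Cebpg: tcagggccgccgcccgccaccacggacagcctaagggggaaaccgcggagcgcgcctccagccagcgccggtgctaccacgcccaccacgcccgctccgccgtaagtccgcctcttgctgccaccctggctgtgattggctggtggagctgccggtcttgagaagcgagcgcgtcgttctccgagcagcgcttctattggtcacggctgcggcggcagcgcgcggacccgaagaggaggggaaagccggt

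The Cebpb window held 3 TGACG motifs, which began at positions -234, -107 and -61 from the gene start. The Nfil3 window held 1, which began at position -9. The Cebpg and Cebpa windows held 0. Of all 33469 windows of this length, 21.2% held at least 1 TGACG motif and 1.11% held at least 3. Among 6442 genes tested and not called on chip A, 33.6% held at least 1 in any of their windows. The share with at least 3 was not counted for these genes, so the 1.11% is a baseline of all windows only. The full CRE, TGACGTCA, was in 1.83% of all windows and in none of the 4. The loose C/EBP motif TTNNGNAA, read on both strands, was in 41.3% of all windows. Among the 4, it was found once, in Cebpg, where it began at position 34 after the start. The D-box letters TTATGTAA and TTACGTAA, which also fit that motif, were in 1.01% of all windows and in none of the 4. The windows differed in base composition, with G and C making up 81.0% in Cebpb, 71.0% in Cebpg, 68.7% in Cebpa and 48.7% in Nfil3. The median was 51.7% over all windows and 61.7% over the genes tested and not called on chip A. A match is a match of letters and was not tested as a binding site.

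**Figure D1:**
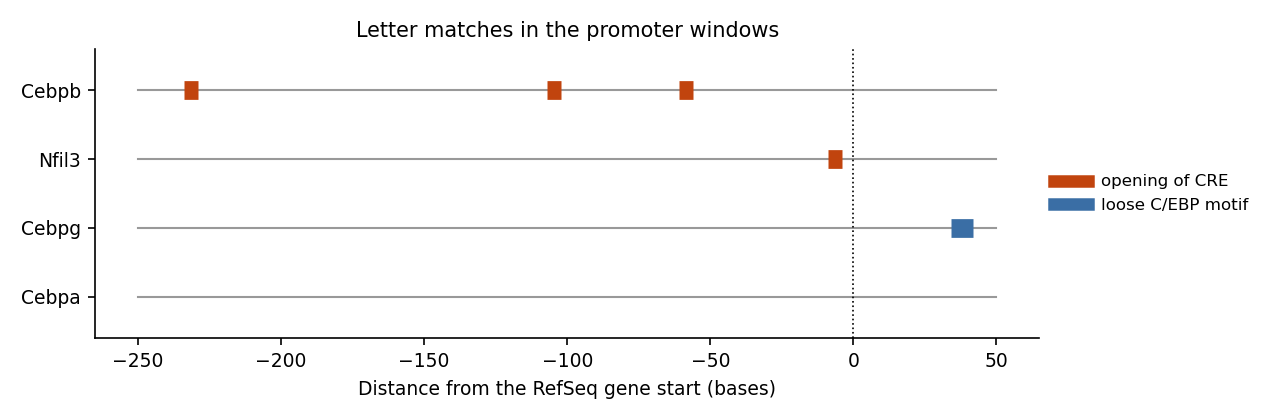
Letter matches in the promoter windows of 4 genes, with the distance from the RefSeq gene start in bases on the horizontal axis and 1 line per gene. Red blocks (opening of CRE) mark TGACG motifs and the blue block the loose C/EBP motif. Cebpb has 3 TGACG motifs and Nfil3 has 1, while Cebpg has only the loose C/EBP motif and Cebpa has neither.

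Levels are the authors' log2 expression values. The array medians of chip A were 8.15 to 8.17, those of chip B 6.77 to 6.79. Detection calls were not used here, so how far a low level lies above background is unknown. A probe set was tested when its mean linear level was at or above the 30th percentile of its chip, which corresponds to 7.02 (log2) on chip A. Of the 8 member probe sets 4 passed, those of Cebpb, Nfil3 and Cebpg, and 4 did not, the 1 of Cebpa and the 3 of Cebpd. As a check of the cell type, the chromaffin markers Th, Phox2a and Chgb lay at percentiles 97.7, 99.0 and 98.2 of chip A by level. Hand2 (80.6 on its brighter probe set), Chga (75.3) and Gata3 (71.0) lay lower, and Ddc lay at 39.9 and 37.9. Dbh, Slc18a1 and the chip A probe sets of Slc18a2 lay below the filter. The fibroblast markers Col3a1 and Thy1 also lay high, at 98.0 and 94.7. Col1a1 (69.6 on its brighter probe set), Dcn (45.2) and Fn1 (32.4) lay lower. Col1a2, Lum, Pdgfra and the chip A probe set of Pdgfrb lay below the filter. On chip B the brighter Pdgfrb probe set lay at 82.4. With some markers high and others low in both lists, these levels alone do not set chromaffin cells apart.

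The levels of the members spanned most of the range of chip A. Cebpb was the brightest, at percentile 89.6 of the chip without forskolin, followed by the 2 probe sets of Cebpg at percentiles 76.7 and 55.1. Nfil3 lay at percentile 36.2. The Cebpd probe sets lay at percentiles 21.2, 17.2 and 16.1, and Cebpa was the dimmest at 8.3. Probes differ in how brightly they report, so these percentiles place each probe set on its chip and do not rank the genes by amount of transcript.

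**Figure D2:**
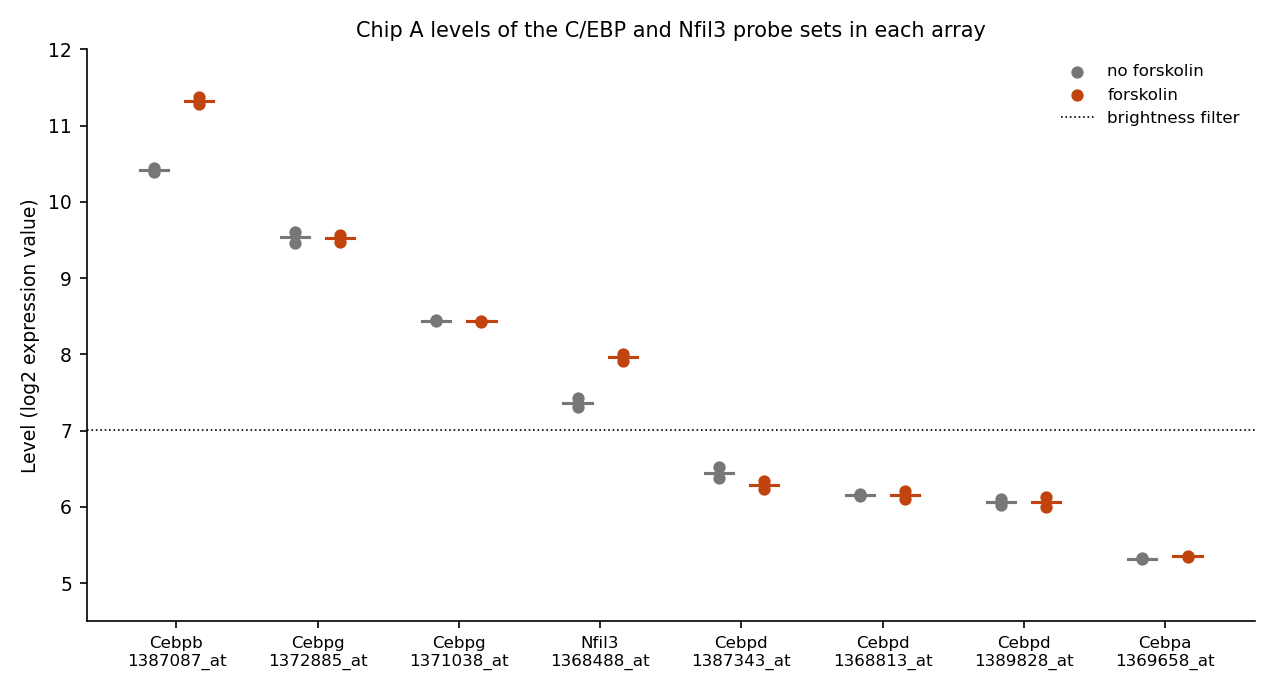
Level of each of the 8 probe sets (log2 expression value) in each of the 4 arrays of chip A, with no forskolin in grey and forskolin in red, and the mean of 2 arrays as a short line. The dotted line is the brightness filter at 7.02. The red points lie clear above the grey ones in Cebpb and Nfil3, and every point of Cebpd and Cebpa lies below the filter.

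The comparison asks which transcripts of these factors differ in level when PC12 cells are given forskolin. Cebpb and Nfil3 rose, 1.88-fold and 1.51-fold. Cebpg was tested on 2 probe sets and called on neither. Cebpa and Cebpd lay too low to be tested under the filter, and no difference past the threshold was found for them when the filter was dropped. Of the 4 tested member probe sets 2 were called higher and 0 lower by limma at adjusted p under 0.05, beside 2.03% of all tested probe sets of chip A called higher and 1.26% called lower, 3.30% in all. In bulk RNA, a change in the share of cells that make a transcript and a change in its amount per cell cannot be told apart.

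Cebpb encodes C/EBP beta, an activator known from the response to interleukin 6, from fat cell formation and from macrophages. Its probe set (1387087_at) read 10.39 and 10.44 (log2) on the arrays without forskolin and 11.37 and 11.28 on the arrays with it. The arrays with forskolin were both above those without, by far more than arrays of a group differed. The means were 10.41 ± 0.04 and 11.32 ± 0.06 (SD, n = 2). The log2 change was 0.91 ± 0.04 (SE), with a 95% interval of 0.82 to 1.01, which is a fold of 1.76 to 2.01 (limma adjusted p = 3.53e-06). This was the 44th largest rise among 11106 tested probe sets and the 36th smallest p. The rise was called in all 11 alternatives tried, with log2 changes of 0.87 to 0.96.

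Nfil3, the repressor of D-box genes, rose less. Its probe set (1368488_at) read 7.43 and 7.31 without forskolin and 7.91 and 8.01 with it (log2). Again the groups did not overlap, and both control arrays lay above the level of the filter. The means were 7.37 ± 0.09 and 7.96 ± 0.07 (SD, n = 2). The log2 change was 0.59 ± 0.06 (SE), with a 95% interval of 0.46 to 0.73, or a fold of 1.38 to 1.66 (limma adjusted p = 6.17e-04). It was the 73rd largest rise of chip A. The rise was called in each of the 10 alternatives in which this probe set was tested, with log2 changes of 0.53 to 0.65. It was not tested under the filter at the 50th percentile, which left it out.

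Cebpg, the partner without an activation domain, was tested on 2 probe sets that target different sequence records. The brighter one (1372885_at) read 9.46 and 9.61 without forskolin and 9.57 and 9.47 with it (log2), and the other (1371038_at) read 8.45 and 8.44 against 8.44 and 8.43. In both the groups overlapped. The log2 changes were -0.02 (95% interval -0.15 to 0.12, limma adjusted p = 0.925) and -0.01 (-0.10 to 0.09, adjusted p = 0.959). As folds, with forskolin over without, these intervals run from 0.902 to 1.08 and from 0.932 to 1.06. Both lie wholly below the intervals of Cebpb and Nfil3.

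Cebpd encodes C/EBP delta, which is induced early in fat cell formation and in inflammation. Its 3 probe sets all lay below the filter. Probe set 1387343_at read 6.52 and 6.38 without forskolin and 6.23 and 6.34 with it (log2), so both forskolin arrays lay below both control arrays. Without the filter its change was -0.17 (95% interval -0.32 to -0.01), with an unadjusted p of 0.0355 and a limma adjusted p of 0.286, and it was not called. With each array left out in turn the change ran from -0.24 (control array of replicate 2 left out) to -0.09 (control array of replicate 1 left out). The other probe sets showed no clear change. Probe set 1368813_at read 6.14 and 6.17 against 6.21 and 6.11, and 1389828_at read 6.11 and 6.03 against 6.0 and 6.13. In both the groups overlapped, with changes of 0.00 (-0.12 to 0.12) and 0.00 (-0.15 to 0.14).

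Cebpa encodes C/EBP alpha, which drives fat and myeloid differentiation and halts the cell cycle. Its probe set (1369658_at) read 5.32 and 5.33 without forskolin and 5.35 and 5.36 with it (log2). The groups did not overlap, but they lay only 0.04 apart (95% interval -0.06 to 0.14, limma adjusted p = 0.745 without the filter). In the RefSeq gene table Cebpa and Cebpg are neighbours on chromosome 1, with 1 gene between them, which does not code for a protein. Neither was called. Over all 8 probe sets, the groups did not overlap in 4, and in 2 of the 4 that were tested, beside 48.5% of all tested probe sets of chip A. With 2 arrays against 2, an exact two-sided permutation test of a single probe set cannot go below p = 0.333.

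**Figure D3:**
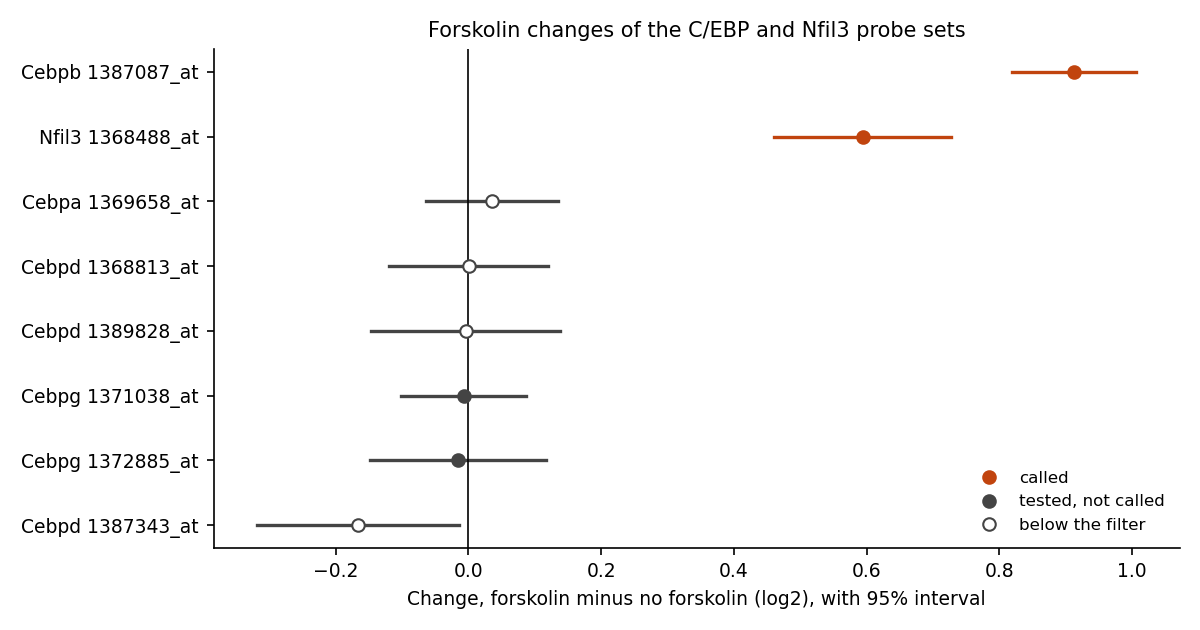
Change of each of the 8 probe sets, forskolin minus no forskolin (log2), with its 95% interval from limma on 2 arrays per group. Filled red points were called, filled grey points were tested and not called, and open points lay below the filter and come from the fit without it. The intervals of Cebpb (0.82 to 1.01) and Nfil3 (0.46 to 0.73) lie clear of 0 and of all other intervals.

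**Figure D4:**
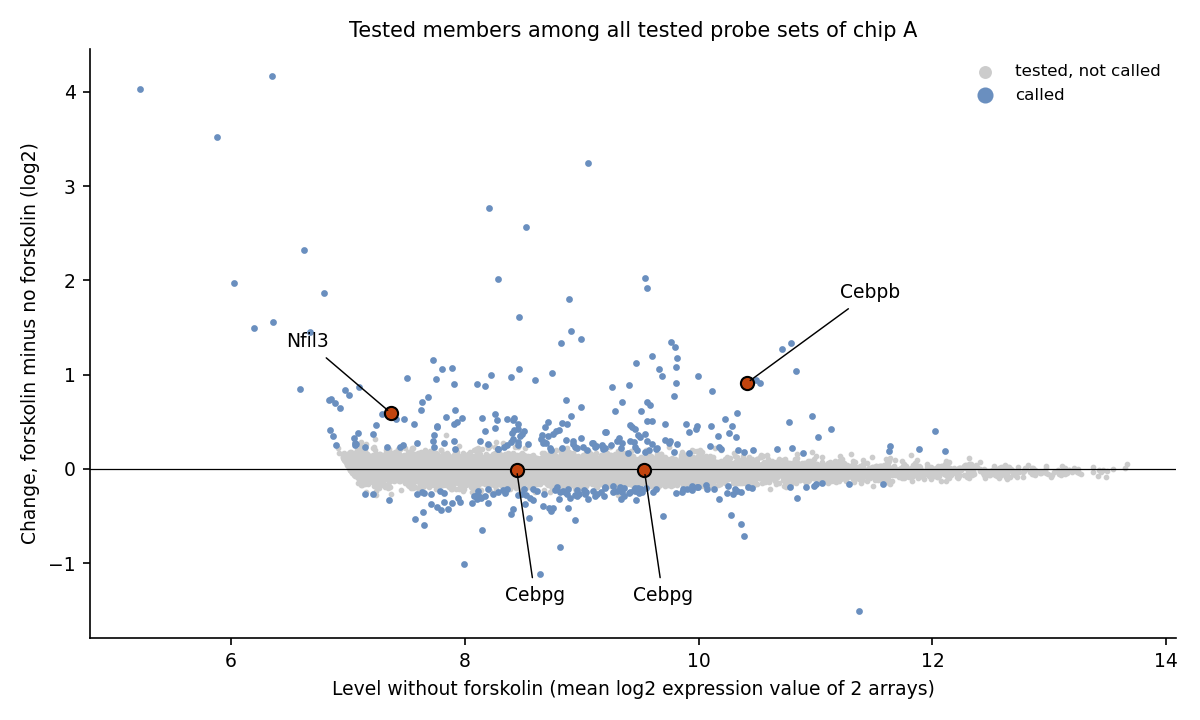
Change with forskolin (log2, vertical) against the mean level without it (log2, horizontal) for the 11106 tested probe sets of chip A, with called probe sets in blue and the 4 tested member probe sets in red. Cebpb lies high among bright probe sets at 10.41 and Nfil3 among dim ones at 7.37, while both Cebpg points lie on the line at 0.

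The genes whose profile over the 4 arrays was most like that of a called member were found by the root mean square difference of log2 values, each taken from its own mean without forskolin. For Cebpb these were Cited2 (0.0177), Irf2bp2 (0.0331), Bambi (0.0379), Pvr (0.0459) and Bdkrb2 (0.0461). Their rises of 0.89 to 0.96 (log2) bracket that of Cebpb. For Nfil3 they were B3gnt2 (0.0411), Usp2 (0.0512), Siah2 (0.0609), the Nr4a3 probe set 1369217_at (0.0637) and Pi16 (0.0726). Their rises were 0.53 to 0.63. By its construction the measure ranks genes with a rise of like size first.

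Of 15 tested genes that are relatives of the members or bZIP proteins that pair or compete with them, 2 rose and 0 fell (limma, with 4 higher and 1 lower at an unadjusted p under 0.05). The median log2 change was 0.02 beside -0.01 over all tested probe sets of chip A. Counts at that unadjusted threshold, here and below, are given without the share of all tested probe sets, so they have no baseline. Mafk, a small Maf protein that lacks an activation domain, rose from 8.75 and 8.67 to 9.06 and 9.07, or 1.28-fold (limma adjusted p = 0.00254). Atf4, an activator of the amino acid stress response that can pair with C/EBP factors, rose from 10.78 and 10.82 to 10.99 and 11.06, or 1.17-fold (0.0164). In both genes the groups did not overlap. Leaving out the forskolin array of replicate 2 ended the Atf4 call (0.0688). Ddit3, or CHOP, a C/EBP relative that blocks its partners, measured 0.17 (0.120). Maff, another small Maf gene and measured on chip B, read 6.82 and 7.13 against 7.50 and 7.50, a change of 0.53 ± 0.11 (SE) that was not called (0.391), though it was called when the control array of replicate 2 was left out (0.00720).

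The D-box activators that Nfil3 opposes were not called. Tef measured -0.14 on chip A (limma adjusted p = 0.195) and -0.14 and -0.27 in its 2 probe sets on chip B, also without a call, so all 3 lay below 0. Dbp measured -0.07 (0.463) and Hlf -0.05 (0.671). Cebpe, the C/EBP factor of granulocytes, lay just above the filter and measured -0.03 (0.848).

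Of 14 tested genes listed as regulators of the transcription or turnover of C/EBP factors, 1 rose and 0 fell by limma, with a median of 0.05. At an unadjusted p under 0.05 (limma), 4 were higher and 0 lower. Fbxw7 of this list was measured on chip B. The gene that rose was Crem, whose products activate or repress genes with a CRE. It rose 1.84-fold on chip A, and by 2.49 and 2.15 (log2) on 2 probe sets of chip B, where 0.159% of tested probe sets were called and 0.150% were called higher. Creb1, which encodes CREB itself, measured -0.01 (limma adjusted p = 0.932), and Stat3, the factor that carries the interleukin 6 signal, -0.02 (0.857). The Tribbles genes Trib1 and Trib2, whose proteins guide C/EBP alpha to degradation, measured 0.01 and 0.12. Their relative Trib3 measured 0.17, and none of these genes was called. Cop1, the ubiquitin ligase that Tribbles proteins recruit, measured -0.08 (0.315).

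Genes known as C/EBP targets in fat, liver or inflammation were mostly dim. Of 24 with a probe set, 15 lay below the filter, among them Pparg, Fabp4, Il6 and Alb. By design the filter leaves out 30% of the probe sets of each chip. Of the 9 that were tested, 0 rose and 0 fell (limma, also 0 at an unadjusted p under 0.05), and the median was -0.02. Adipoq, on chip B, had the smallest p of the 9 and measured -0.17 (limma adjusted p = 0.977). Odc1, the first enzyme of polyamine synthesis, measured 0.06 (limma adjusted p = 0.450), and Sod2, the mitochondrial superoxide dismutase, -0.04 (0.660). The changes of the 9 lay between -0.17 and 0.06 (log2).

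Of 9 tested genes that carry D-boxes or are known to answer to Nfil3 or its rivals, 1 rose and 0 fell by limma. At an unadjusted p under 0.05 (limma), 4 were higher and 0 lower. The median was 0.16, beside -0.01 over all tested probe sets of chip A and -0.03 of chip B. Rora, Cry1 and Per3 were measured on chip B, where 0.159% of tested probe sets were called, against 3.30% on chip A. Per1, a clock repressor that also carries CREs, rose from 9.26 and 9.43 to 10.04 and 10.05, or 1.63-fold (limma adjusted p = 1.74e-04). Per2 measured 0.18 (0.0998) on chip A, and was called there under quantile normalization (0.0470) and with median centring (0.0427). Its probe set on chip B measured 0.06 ± 0.08 (SE) and was not called. Por, which passes electrons to cytochrome P450 enzymes, measured 0.16 (0.104) on the brighter of 2 probe sets, and the dimmer rose by 0.20 (0.0429). Nr1d1, a clock repressor, measured -0.05 (0.706) and Cry1, on chip B, -0.08.

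**Figure D5:**
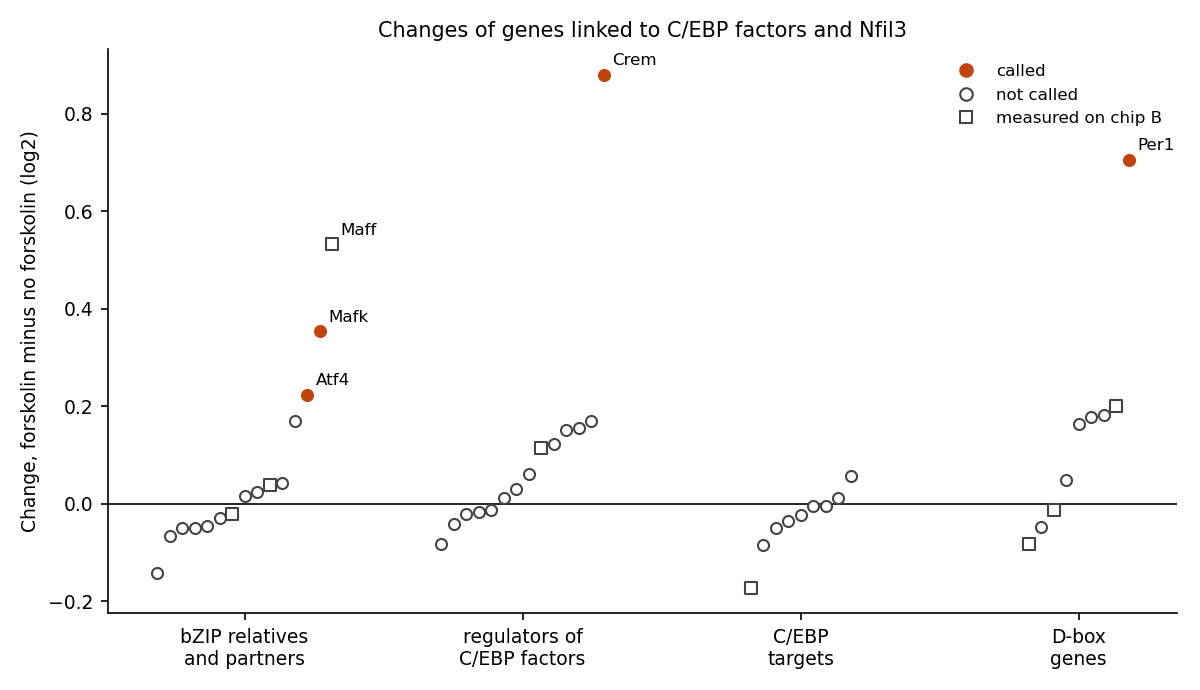
Change with forskolin (log2) of each tested gene of 4 lists, through its brightest tested probe set, with called genes in red, others open, and squares for genes measured on chip B. Of all these genes Crem (0.88), Per1 (0.71), Mafk (0.35) and Atf4 (0.22) were called, and the 9 C/EBP targets lie between -0.17 and 0.06.

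Markers of other cell types that express C/EBP factors were examined beside these rises. None of 6 tested macrophage and blood markers, 6 fibroblast markers, 4 glial markers and 3 adrenal cortex markers was called by limma (1 fibroblast marker was higher at an unadjusted p under 0.05). The macrophage markers Ptprc, Csf1r and Cd74 lay below the filter. Aif1, Lyz2, Cd68, Itgam and Cd14 were tested, at percentiles 52.0, 49.4, 37.2, 35.7 and 30.8 of chip A. Another Aif1 probe set of chip A lay at 2.8, below the filter. The summed linear level of the blood and macrophage markers on chip A was 1621 to 1658 without forskolin and 1653 to 1693 with it, which overlap. The fibroblast sum was 9286 to 9327 against 9391 to 9551, the glial sum 995.8 to 1025 against 1022 to 1055, and the adrenal cortex sum 571.0 to 591.4 against 593.0 to 617.6. The glial sums overlapped, and those of fibroblast and adrenal cortex markers were higher with forskolin without overlap. Among single tested probe sets of chip A, 48.5% showed no overlap, so such a gap is common with 2 arrays per group. The sums take in probe sets below the filter, 4 of 6 for adrenal cortex, 5 of 12 for fibroblast and 4 of 13 for chromaffin markers. A linear sum also gives the brightest probe sets the most weight. The chromaffin sum was 14220 to 14630 without forskolin and 16660 to 16690 with it. Phox2a was the 1 called gene of 8 tested, at 1.33-fold (limma adjusted p = 1.02e-04), with 5 higher and 1 lower at an unadjusted p under 0.05. Each gene was counted through its brightest tested probe set. Hand2 measured 0.16 (0.0876) on the brighter of 2 probe sets, and the dimmer rose by 0.28 (0.0166). The part of these shifts in the rises of Cebpb and Nfil3 was not tested.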

How the data were processed

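Total RNA of PC12 cells was measured on chips A and B. The log2 values were computed by the authors and deposited as 1 table per chip, and the sources used here do not say how the signal was corrected, summarised and scaled. Base 2 was inferred: as natural logarithms, 3063 values on chip A would exceed a 16-bit scanner. The medians of the arrays spanned 0.021 (chip A) and 0.025 (chip B), so no scaling was added. Each chip was fitted alone over all probe sets at or above the 30th percentile of brightness (11106 on A, 10693 on B) with limma 3.58.1 in R 4.3.3 (lmFit, eBayes with a trend, two-sided, Benjamini-Hochberg over the chip, call at adjusted p under 0.05, n = 2 arrays per group). Rose and fell are used for calls. The fits were tried on simulated data. Intervals are limma's 95% intervals, and the number of arrays limits the precision.

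Symbols came from the platform annotation, updated by Entrez number to RefSeq. On chip A 12783 probe sets carried 1 symbol, 312 several and 2771 none (chip B: 7564, 100 and 7612), and 12748 and 7524 matched RefSeq. The members and gene lists were chosen with earlier results of these data known. A list gene is represented by the brightest of its tested probe sets, with chip A preferred. The rule names every member probe set, the called genes of each list (up to 6, otherwise the 2 with the smallest p) and the 5 genes most like each called member. It was not followed for the marker lists without a call. Other list genes were named after their values were seen. The bZIP region of the proteins was not analysed here. Alternatives were quantile normalization, median centring, no filter, a filter at the 50th percentile, eBayes without a trend, robust eBayes, the replicate number as a block, each array left out in turn, the smallest p per gene and another measure of likeness.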

Additional observations from a re-analysis of the deposited data

How the results depend on the processing

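Cebpb was called higher in 11 of 11 alternatives and Nfil3 in 10 of 10, with limma adjusted p of at most 0.00104 and 0.0213, both of these with the replicate number as a block. Cebpg was not called in any of 11 on either probe set. Its log2 changes ran from -0.0152 to 0.00151 on 1371038_at and from -0.0903 to 0.0584 on 1372885_at with each array left out in turn, so their signs are not settled. The Cebpd probe set 1387343_at, with no filter and no call, ran from -0.24 to -0.09, and the other 2 took both signs. The Cebpa difference was 0.0192 under quantile normalization. With the replicate block, 46 probe sets of chip A were called lower in place of 140, and 2 of chip B in place of 1. The labels do not tie equal numbers to a shared culture, and same-numbered arrays deviated together with a correlation of 0.00337 (chip A) and 0.197 (chip B). Median centring gave 277 lower calls on chip A, and leaving out each array 83 to 192. On chip B quantile normalization gave 27 higher and 3 lower calls in place of 16 and 1, and leaving out each array 10 to 41 higher and 0 to 57 lower. The 0 came with the forskolin array of replicate 1 left out, where 183 probe sets were lower at an unadjusted p under 0.05. The bZIP relatives that rose numbered 1 to 3 with an array left out. Per2 joined Per1 under quantile normalization and median centring, and Por did with the smallest p per gene, which made 2. Of the 5 genes most like Nfil3, 4 remained under the mean absolute difference, and all 5 for Cebpb. Why these counts moved was not tested.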

Other observations

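Promoter letters were also counted for the genes called on chip A, with no test, over the same windows of 300 bases matched by gene number. The motif TGACG, which opens the CRE, was in 48.9% of 137 genes that rose, in 31.7% of 104 that fell and in 33.6% of 6442 that were tested and not called. The full CRE, TGACGTCA, was in 10.9%, 0.962% and 3.18% of them. The loose C/EBP motif TTNNGNAA was in 24.8% of the genes that rose, 29.8% of those that fell and 29.9% of those not called. The D-box letters were in 1, 3 and 37 genes of the same groups. The median share of G and C was 63.3%, 59.2% and 61.7%, and the part of base composition in these shares was not tested.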
